A study of Mus musculus with 6 samples.

Results

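Oligodendrocyte precursors and newly formed oligodendrocytes were followed through 10 marker genes, called members here, in hippocampal RNA sequencing of mice with a floxed Bcas2 gene. They were taken by gene name from a deposited table of 33385 genes, and all 10 were found and passed the filter on low counts. Pdgfra and Cspg4 stand for dividing precursors. Gpr17, Enpp6 and Bmp4 stand for cells committed to differentiation. C1ql1, Lhfpl3, Neu4, Vcan and Tnr are further genes of the lineage. The Syn-cre group (n = 3 libraries) came from Bcas2F/F mice given AAV2/9-Syn-cre, an adeno-associated virus that carries the Cre recombinase under the synapsin promoter, and is labelled Bcas2 knockdown. The vehicle group (n = 3 libraries) came from Bcas2F/F mice given AAV-vehicle and is labelled WT, although its mice carry the floxed allele too. The synapsin promoter is active in neurons, so the lineage described here is not the cell type that this promoter serves. The labels give no age and do not say whether a library is 1 animal, and a p-value therefore reflects only how much these libraries vary, which may be technical.

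Oligodendrocyte precursors are spread through the adult brain, divide in response to platelet-derived growth factor, and give rise to new oligodendrocytes throughout life. On the way they pass through a committed stage that is brief and marked by Gpr17, then by Enpp6 as the first myelin sheaths form. In mature cells these genes are silenced and the myelin genes dominate. Some markers are shared with other cells: pericytes also express Cspg4, perivascular fibroblasts also express Pdgfra, and Tnr is made by some neurons as well.

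Of the 3 committed genes, Enpp6 was at 45.9%, Gpr17 at 59.9% and Bmp4 at 70.7% of the vehicle level in Syn-cre hippocampus, whereas the precursor genes Pdgfra and Cspg4 were at 112% and 105%. C1ql1 was at 62.2%. None of the 10 members passed an adjusted p under 0.05 in edgeR's quasi-likelihood test, which called 0 of 20946 tested genes, a background of 0.0%. Without adjustment, 3 of 10 members, Enpp6, C1ql1 and Gpr17, had an edgeR p under 0.05 and were lower. That compares with 3.16% of all tested genes lower at that threshold and 6.19% in either direction. The members were chosen with earlier results of these data known, so this count is not independent of the data. The median log2 fold change of the members was -0.09, beside 0 for all genes tested. DESeq2 called 1 member, Enpp6 (adjusted p = 0.0164), where it called 0.353% of all tested genes, and 0.229% as lower. It left 5725 of these genes without an adjusted p, so both shares are smaller than among the genes that had one. In a whole tissue, fewer cells of a type and less RNA per cell cannot be told apart.

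**Figure D1:**
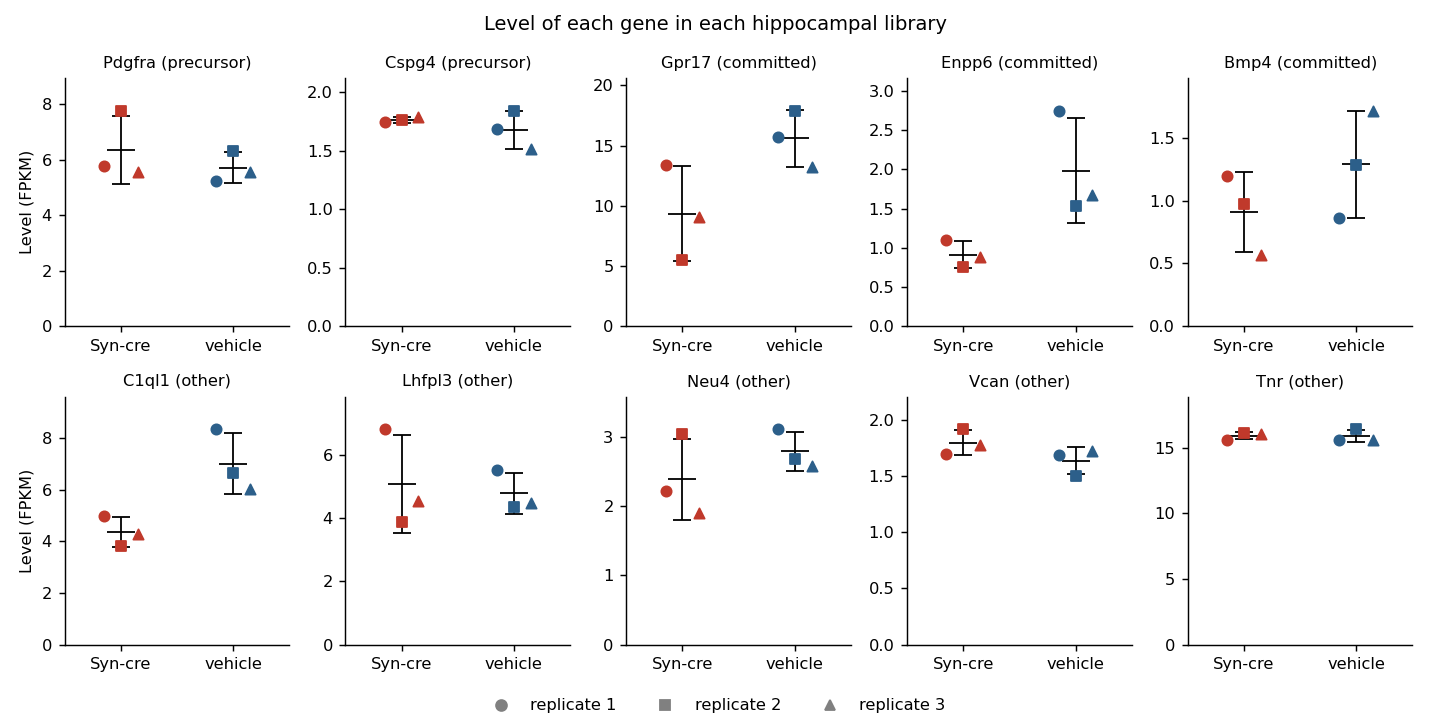
Level of each of the 10 genes in FPKM (fragments per kilobase, scaled to library depth, vertical axis from 0) in 3 Syn-cre and 3 vehicle libraries, with the mean and SD in black and the marker shape giving the replicate number. The groups are apart for Enpp6 and C1ql1 and overlap for the other 8 genes.

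The libraries held 55914768 to 76481458 estimated counts, and some stood apart. Low counts pile up at multiples of 4 (6705 gene and library values of 4, against 3597 of 3 and 2389 of 5), so a printed count is an estimate and the number of read pairs behind it is not known. Vehicle replicate 3 lay at 80.92 on the first principal component (26.5% of the variance, other libraries -35.06 to 13.46) and had the choroid plexus gene Ttr at 4180 FPKM, against 0.349 to 12.9 FPKM elsewhere. Syn-cre replicate 2 lay at 77.68 on the second component (22.1% of the variance, other libraries -25.96 to -0.51). Vehicle replicates 2 and 3 had 10430 and 10594 counts of 4 Y-linked genes, and the other 4 libraries had 0. Xist, an RNA of female cells, was at 0.00137 and 0.0213 FPKM in vehicle replicates 2 and 3. It was at 43.9 to 58.6 FPKM in the other 4 libraries. The labels give no sex, but these genes mark vehicle replicates 2 and 3 as male and the other 4 libraries as female. Vehicle replicate 1 is thus the only female vehicle library, so group and sex are partly confounded in every comparison here. The mitochondrial share of counts was 5.96%, 6.18% and 6.09% in Syn-cre and 5.19%, 5.42% and 5.54% in vehicle libraries, higher in every Syn-cre library, and its part in the results was not tested. The targeted gene Bcas2 averaged 9.04 ± 0.151 FPKM in Syn-cre and 9.68 ± 0.216 FPKM in vehicle libraries (SD, n = 3 each), and its log2 fold change was -0.07 (95% interval -0.23 to 0.08; edgeR adjusted p = 0.861). The hippocampal neuron gene Camk2a averaged 403 FPKM in Syn-cre and 400 FPKM in vehicle libraries, and Snap25 averaged 205 and 192 FPKM. Of 7 neuron markers, 4 were higher and 3 lower, with log2 fold changes of -0.29 to 0.83 and a median of 0.03. At an unadjusted edgeR p under 0.05, 1 was higher and 0 lower, beside 6.19% of all tested genes in either direction. None of the 7 was at 0 in any library.

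The precursor genes come first. Pdgfra encodes the receptor for platelet-derived growth factor A, the main mitogen of precursors, and its GRCm39 position is chr5:75312953-75358876, plus strand. Pdgfra was at 5.77, 7.76 and 5.54 FPKM in Syn-cre replicates 1 to 3, and at 5.24, 6.32 and 5.54 FPKM in vehicle replicates 1 to 3. The groups overlapped, and Syn-cre replicate 2 was the high library. Its log2 fold change was 0.18 (95% interval -0.15 to 0.51; edgeR adjusted p = 0.844), so the data allow 90.1% to 143% of the vehicle level, and the exact two-sided permutation p was 0.50. Without Syn-cre replicate 2 the log2 fold change was 0.01.

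Cspg4, which encodes the NG2 proteoglycan on the precursor surface, was among the steadiest members. Cspg4 was at 1.74, 1.76 and 1.79 FPKM in Syn-cre libraries, and at 1.68, 1.84 and 1.51 FPKM in vehicle libraries. All Syn-cre values lay between the lowest and the highest vehicle value. The log2 fold change was 0.10 (95% interval -0.15 to 0.34; edgeR adjusted p = 0.884; exact permutation p = 0.50). Of 10 pericyte and smooth muscle genes, which mark another source of Cspg4, 9 were lower and 1 higher in Syn-cre libraries, and 0 had an unadjusted edgeR p under 0.05. Their summed level was 38.9 to 66.2 FPKM in Syn-cre and 48.2 to 73.1 FPKM in vehicle libraries, led by Vtn and Rgs5, and none was at 0; their part in the Cspg4 values was not tested.

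The committed genes follow. Enpp6 encodes a glycerophosphodiesterase that acts on choline lipids and marks oligodendrocytes as they form, and its GRCm39 position is chr8:47439922-47549797, plus strand. Enpp6 was at 1.10, 0.757 and 0.883 FPKM in Syn-cre replicates 1 to 3, and at 2.75, 1.53 and 1.67 FPKM in vehicle replicates 1 to 3. Every Syn-cre library lay below every vehicle library, and vehicle replicate 1 was far above the rest. The log2 fold change was -1.10 (SE 0.262, 95% interval -1.71 to -0.48), which spans 30.5% to 71.5% of the vehicle level, with an unadjusted edgeR p of 0.00368 and an adjusted p of 0.792. The exact two-sided permutation test gave 0.10, the smallest p that 3 against 3 libraries allow. By unadjusted p Enpp6 stood at rank 83 of 20946 tested genes. Leaving out each library in turn gave log2 fold changes of -1.25 to -0.78, each with an unadjusted edgeR p under 0.05 (0.00289 to 0.0156), and the adjusted p over all 16 alternatives was 0.0164 to 0.999.

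Gpr17 encodes a G protein-coupled receptor that is present in committed precursors and lost before myelination. Gpr17 was at 13.4, 5.50 and 9.08 FPKM in Syn-cre replicates 1 to 3, and at 15.7, 17.9 and 13.2 FPKM in vehicle replicates 1 to 3. The groups overlapped only through Syn-cre replicate 1, which lay just above vehicle replicate 3, and Syn-cre replicate 2 was the low library. The log2 fold change was -0.72 (SE 0.288, 95% interval -1.39 to -0.04; unadjusted edgeR p = 0.0398, adjusted p = 0.792; exact permutation p = 0.20). Single libraries moved it: it was -0.46 without Syn-cre replicate 2 and -1.07 without Syn-cre replicate 1, and 2 of 6 fits that left out a library had an unadjusted p under 0.05. Gpr17 lies inside Lims2, a gene on the other strand at 2.01 FPKM in Syn-cre and 2.35 FPKM in vehicle libraries. The libraries mark strand, but the strand setting of the counting is not given in the sources used here, so reads of the pair may not be fully separated.

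Bmp4 encodes a secreted ligand of the transforming growth factor family, which committed precursors make and which holds back their own maturation. Bmp4 was at 1.2, 0.973 and 0.566 FPKM in Syn-cre replicates 1 to 3, and at 0.863, 1.29 and 1.72 FPKM in vehicle replicates 1 to 3. The groups overlapped, with Syn-cre replicate 3 lowest and vehicle replicate 3 highest. It had the fewest estimated counts of any member in each library, 78 to 244, and its log2 fold change was -0.46 (95% interval -1.30 to 0.39; edgeR adjusted p = 0.847; exact permutation p = 0.40). Without vehicle replicate 3 it was -0.20, without Syn-cre replicate 3 it was -0.21, and without Syn-cre replicate 1 it was -0.70. Vehicle replicate 3 also had the highest summed level of 10 meningeal and perivascular fibroblast genes. That sum was 21.7 to 54.8 FPKM in Syn-cre libraries and 25.7 to 105 FPKM in vehicle libraries, led by Igf2 and Dcn, with none of these genes at 0, and its part in the Bmp4 and Pdgfra values was not tested.

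**Figure D2:**
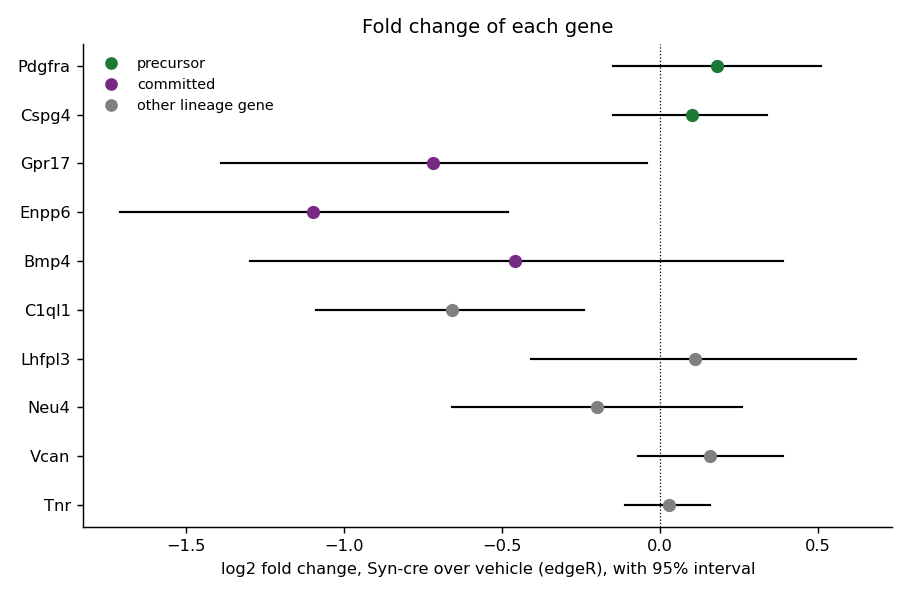
Fold change of each gene on the log2 scale, Syn-cre over vehicle, with its 95% interval from edgeR (horizontal axis). The intervals of Enpp6, C1ql1 and Gpr17 lie below 0, and those of the other 7 genes include 0.

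The start regions of 2 committed and 2 precursor genes are shown as a description. Of these genes only Enpp6 had groups that did not overlap. No window was available for Gpr17, the other committed gene. They come from RefSeq on GRCm38.p6, a build other than that of the deposited table, and run from 250 bases before to 50 after a RefSeq start. Capitals mark SOX motifs (ACAAAG or ACAATG, bound by SOX10 and its relatives) and E-boxes (CANNTG, bound by OLIG2 and many others), searched on both strands.
Enpp6, chr8:46986637-46986936, plus strand: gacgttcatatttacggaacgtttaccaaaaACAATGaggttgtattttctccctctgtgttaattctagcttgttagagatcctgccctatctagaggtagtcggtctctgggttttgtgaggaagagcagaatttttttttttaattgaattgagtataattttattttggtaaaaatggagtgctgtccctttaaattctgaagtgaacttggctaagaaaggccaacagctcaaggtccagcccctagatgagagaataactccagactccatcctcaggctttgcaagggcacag
Bmp4, chr14:46390620-46390919, minus strand: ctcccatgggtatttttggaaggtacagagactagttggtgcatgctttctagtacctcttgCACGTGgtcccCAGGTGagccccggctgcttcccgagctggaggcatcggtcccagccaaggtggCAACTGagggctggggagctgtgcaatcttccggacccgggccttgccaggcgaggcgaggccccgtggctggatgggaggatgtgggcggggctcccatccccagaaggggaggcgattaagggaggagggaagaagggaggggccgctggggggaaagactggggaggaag
Pdgfra, chr5:75152001-75152300, plus strand: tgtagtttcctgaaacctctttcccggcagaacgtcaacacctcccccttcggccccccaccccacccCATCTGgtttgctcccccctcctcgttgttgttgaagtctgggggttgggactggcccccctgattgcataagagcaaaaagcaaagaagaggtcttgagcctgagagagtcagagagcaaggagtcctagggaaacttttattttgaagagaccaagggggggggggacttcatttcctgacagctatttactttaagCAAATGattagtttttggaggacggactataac
Cspg4, chr9:56864854-56865153, plus strand: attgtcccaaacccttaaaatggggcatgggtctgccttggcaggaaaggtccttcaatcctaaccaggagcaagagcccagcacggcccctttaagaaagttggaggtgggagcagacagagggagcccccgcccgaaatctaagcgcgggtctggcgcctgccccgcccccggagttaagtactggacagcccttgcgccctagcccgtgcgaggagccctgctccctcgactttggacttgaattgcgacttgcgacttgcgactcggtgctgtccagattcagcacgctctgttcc

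Enpp6 held 1 SOX motif, 219 bases before the start, and no E-box, Bmp4 held 3 E-boxes, Pdgfra held 2 E-boxes, and Cspg4 held neither. None of the SOX and E-box matches overlapped each other in these 4 windows. Over the 8 members with a window, 2 held a SOX motif and 5 an E-box, beside 28.6% and 72.3% of all 32851 windows of that length. The other window with a SOX motif was that of Tnr, whose log2 fold change was 0.03. The Enpp6 window had 40.3% G and C, against 64% for Bmp4, 51% for Pdgfra and 60% for Cspg4. Such matches describe the letters and do not show that a factor binds there.

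Ratios within a library do not depend on the scaling between libraries. The Enpp6 to Pdgfra ratio of FPKM values was 0.190, 0.0975 and 0.159 in Syn-cre replicates 1 to 3, and 0.525, 0.243 and 0.302 in vehicle replicates 1 to 3. The Gpr17 to Pdgfra ratio was 2.32, 0.709 and 1.64 in Syn-cre libraries, and 2.99, 2.83 and 2.38 in vehicle libraries. For both ratios every Syn-cre library lay below every vehicle library, for Gpr17 by a narrow margin at Syn-cre replicate 1. The Gpr17 levels alone overlapped between the groups, and how often ratios of other genes separate these groups was not counted. On the log2 scale the Enpp6 ratio averaged -2.80 ± 0.498 in Syn-cre and -1.57 ± 0.575 in vehicle libraries (SD, n = 3 each), a difference of -1.24. The log2 Gpr17 ratio averaged 0.48 ± 0.880 in Syn-cre and 1.44 ± 0.170 in vehicle libraries, a difference of -0.97, and Syn-cre replicate 2 alone had more Pdgfra than Gpr17. Without Syn-cre replicate 2 the Gpr17 difference was -0.48, and leaving out each library in turn, a choice made after the data were seen, gave -1.47 to -0.92 for the Enpp6 ratio. The Bmp4 to Pdgfra ratio overlapped between the groups, at 0.208, 0.125 and 0.102 in Syn-cre and 0.165, 0.203 and 0.311 in vehicle libraries, and the log2 difference of -0.66 was -0.44 without Syn-cre replicate 3 and -0.40 without vehicle replicate 3. These ratios are descriptions, and the difference between committed and precursor genes was not tested.

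**Figure D3:**
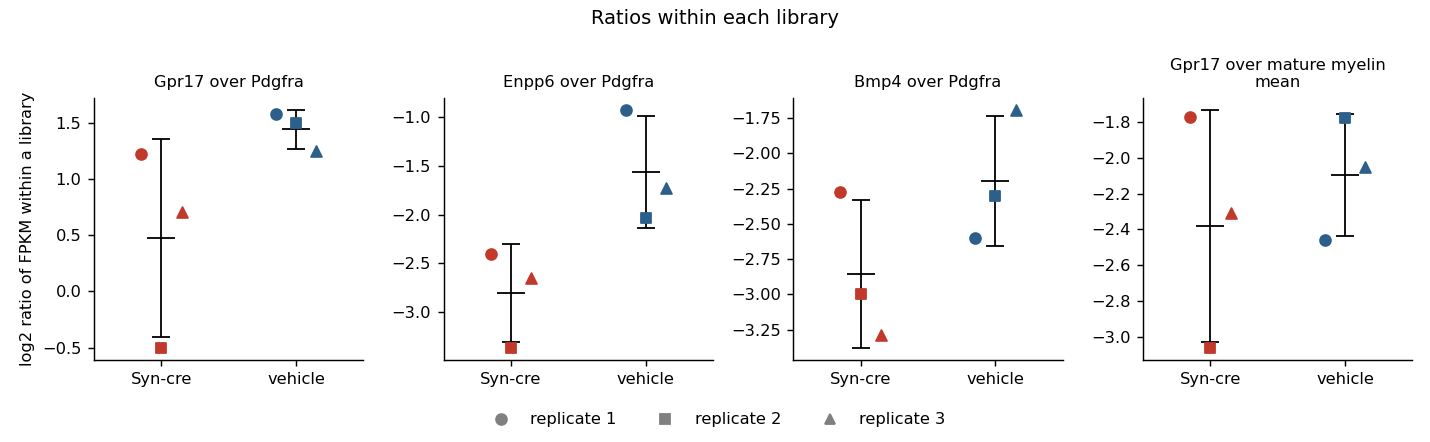
Ratio of FPKM values within each library on the log2 scale (vertical axis, a different range in each panel) for 3 committed genes over Pdgfra, and for Gpr17 over the mean of 16 mature myelin genes, with the mean and SD in black. The Syn-cre libraries lie below the vehicle libraries for Gpr17 and Enpp6 over Pdgfra, and the groups overlap in the other panels.

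Among the further lineage genes, C1ql1 was the one whose groups were apart. C1ql1 encodes a secreted C1q-like protein that binds the adhesion receptor ADGRB3, and its GRCm39 position is chr11:102830090-102837514, minus strand. C1ql1 was at 4.98, 3.83 and 4.29 FPKM in Syn-cre replicates 1 to 3, and at 8.35, 6.66 and 6.04 FPKM in vehicle replicates 1 to 3. Every Syn-cre library lay below every vehicle library, and vehicle replicate 1 was the highest. The log2 fold change was -0.66 (SE 0.181, 95% interval -1.09 to -0.24), which spans 47.1% to 84.8% of the vehicle level. Its unadjusted edgeR p was 0.00750, its adjusted p 0.792 and its exact permutation p 0.10. All 6 fits that left out a library had an unadjusted edgeR p under 0.05 (0.00565 to 0.0294), with log2 fold changes of -0.76 to -0.51. Groups did not overlap, with Syn-cre lower, for 2 of 10 members, Enpp6 and C1ql1, against 7.5% of all tested genes.

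The partners of C1ql1 had other values. Its relative C1ql2, a gene of dentate granule neurons, averaged 23.3 ± 4.87 FPKM in Syn-cre and 27.5 ± 6.73 FPKM in vehicle libraries, with overlapping groups and a log2 fold change of -0.22 (edgeR adjusted p = 0.868). Adgrb3, the receptor, averaged 6.43 ± 0.412 FPKM in Syn-cre and 6.04 ± 0.441 FPKM in vehicle libraries, and its log2 fold change was 0.11 (edgeR adjusted p = 0.833). Of these 3 genes, C1ql3 included, 0 had an unadjusted p under 0.05.

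Neu4, Lhfpl3, Vcan and Tnr overlapped between the groups. Neu4, a sialidase that removes sialic acid from glycoproteins and glycolipids, was at 2.22, 3.04 and 1.9 FPKM in Syn-cre libraries and 3.11, 2.68 and 2.58 FPKM in vehicle libraries. Syn-cre replicate 2 lay among the vehicle values and the other 2 Syn-cre libraries below them all. The Neu4 log2 fold change was -0.20 (95% interval -0.66 to 0.26; edgeR adjusted p = 0.874) and was -0.42 without Syn-cre replicate 2, where the unadjusted edgeR p was 0.0371. It was -0.06 without Syn-cre replicate 3 and -0.11 without vehicle replicate 1. Lhfpl3, a membrane protein with 4 predicted spans, was at 6.80, 3.86 and 4.54 FPKM in Syn-cre libraries and 5.52, 4.35 and 4.47 FPKM in vehicle libraries. Syn-cre replicate 1 was high and replicate 2 low, so the Syn-cre group held both ends, and the log2 fold change was 0.11 (95% interval -0.41 to 0.62; edgeR adjusted p = 0.940), turning to -0.16 without Syn-cre replicate 1. The other sialidases, Neu1, Neu2 and Neu3, had 0 of 3 genes with an unadjusted p under 0.05, with Neu1 at 13.0 FPKM in Syn-cre and 13.7 FPKM in vehicle libraries and Neu2 at 0.349 FPKM in Syn-cre and 0.321 FPKM in vehicle libraries.

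Vcan and Tnr build the matrix around precursors and axons. Vcan, the lectican versican, was at 1.70, 1.92 and 1.78 FPKM in Syn-cre libraries and 1.69, 1.5 and 1.73 FPKM in vehicle libraries, a log2 fold change of 0.16 (95% interval -0.07 to 0.39; edgeR adjusted p = 0.820). The lowest Syn-cre value lay just below the highest vehicle value. Tnr, tenascin R, which crosslinks lecticans, was at 15.6, 16.1 and 16 FPKM in Syn-cre libraries and 15.6, 16.4 and 15.6 FPKM in vehicle libraries. Its log2 fold change of 0.03 had the narrowest interval of the 10 members, from -0.11 to 0.16 (edgeR adjusted p = 0.941). Of 8 other lecticans, link proteins and tenascin partners, 4 were higher and 4 lower, with a median log2 fold change of -0.04 and 0 past the adjusted threshold. That median was -0.12 without vehicle replicate 2, -0.09 without Syn-cre replicate 1 and -0.02 without vehicle replicate 1. At an unadjusted edgeR p under 0.05, 2 of the 8 were lower, beside 3.16% of all tested genes. The same 2 had groups apart, beside 7.5% of all tested genes. The smallest p belonged to Hapln1, a link protein, at 3.85 ± 0.345 FPKM in Syn-cre and 4.98 ± 0.197 FPKM in vehicle libraries (log2 fold change -0.35). Tnc, tenascin C, was next, at 0.693 ± 0.302 FPKM in Syn-cre and 1.37 ± 0.269 FPKM in vehicle libraries (log2 fold change -0.96), each with an edgeR adjusted p of 0.792.

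**Figure D4:**
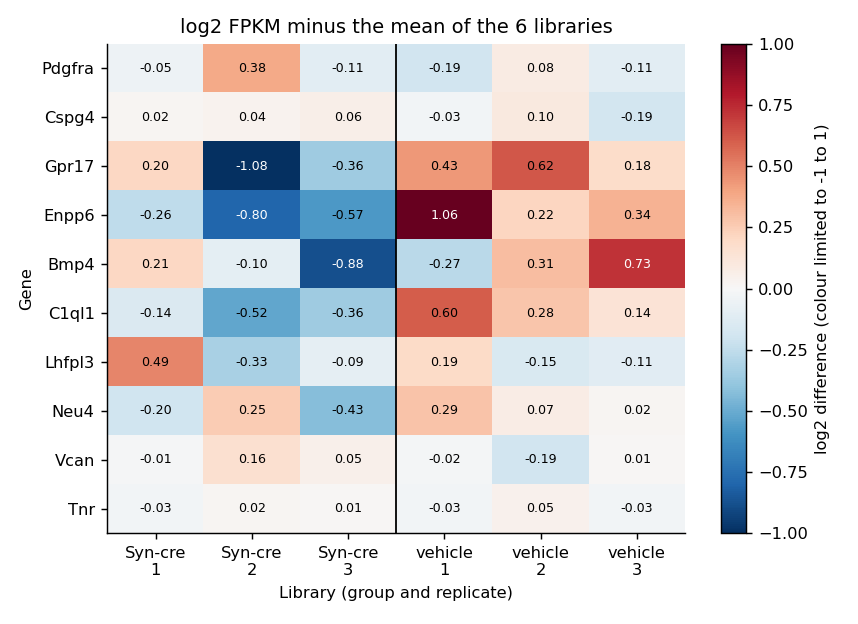
Log2 FPKM of each gene in each library minus the mean of the 6 libraries, Syn-cre to the left of the line and vehicle to the right, with colour limited to -1 to 1. Syn-cre replicate 2 is lowest for Gpr17 (-1.08) and Enpp6 (-0.80) and highest for Pdgfra (0.38), and vehicle replicate 1 is highest for Enpp6 (1.06) and C1ql1 (0.60).

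The library that stood apart on the second component carried both ends of several members. Syn-cre replicate 2 was the lowest of the 6 libraries for 4 members, Gpr17, Enpp6, C1ql1 and Lhfpl3, and the highest for 2, Pdgfra and Vcan. With Syn-cre replicate 2 and vehicle replicate 3 both left out, an alternative chosen after the data were seen, the log2 fold changes were -1.10 for Enpp6, -0.68 for C1ql1, -0.56 for Gpr17, -0.48 for Neu4 and -0.01 for Pdgfra. Then 4 of 10 members had an unadjusted edgeR p under 0.05, beside 749 of all genes tested in that fit. In that fit 0 members and 0 genes of any kind passed the adjusted threshold. With a term for libraries with Y-linked counts, a comparison that rests on vehicle replicate 1 alone among the vehicle libraries, the log2 fold change was -1.57 for Enpp6, -0.92 for C1ql1, -0.74 for Gpr17 and 0.11 for Bmp4.

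By level, Tnr led in both groups, followed by Gpr17, and in vehicle libraries the ranges of that pair overlapped. In Syn-cre libraries the order by mean FPKM was then Pdgfra (6.36), Lhfpl3 (5.07), C1ql1 (4.37), Neu4 (2.39), Vcan (1.80), Cspg4 (1.77), Bmp4 and Enpp6 (both 0.912). Neighbours in that order overlapped except Tnr and Gpr17, C1ql1 and Neu4, and Cspg4 and Bmp4. In vehicle libraries C1ql1 (7.02) stood above Pdgfra (5.70) and Lhfpl3 (4.78), and Enpp6 (1.99) above Cspg4 (1.68), Vcan (1.64) and Bmp4 (1.29). There neighbours overlapped except Gpr17 and C1ql1, and Lhfpl3 and Neu4. The spread between libraries was also uneven: the highest library was 1.22 times the lowest for Cspg4, and 3.25, 3.64 and 3.05 times for Gpr17, Enpp6 and Bmp4.

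Other genes of the lineage were counted in lists from textbook knowledge, and 0 genes of any list passed the adjusted threshold in edgeR. DESeq2 calls were not counted over the lists, but some list genes passed there, such as the astrocyte gene Gfap (DESeq2 adjusted p = 0.015). The lists were written with earlier results of these data known, so their counts are not independent of the data. Of 17 other genes of committed and newly formed oligodendrocytes, 15 were lower and 2 higher, with a median log2 fold change of -0.15; 4 were lower at an unadjusted edgeR p under 0.05 and 5 had groups apart, beside 3.16% and 7.5% of all tested genes. The list includes Lims2, which overlaps Gpr17. The smallest p belonged to Mpzl1, a membrane protein of the myelin zero family, at 5.6 ± 0.476 FPKM in Syn-cre and 7.35 ± 0.533 FPKM in vehicle libraries (SD, n = 3 each). Nfasc, the cell adhesion protein neurofascin, which neurons also express, was at 16.4 ± 1.41 FPKM in Syn-cre and 19.8 ± 0.872 FPKM in vehicle libraries. Their log2 fold changes were -0.37 and -0.25, each with an edgeR adjusted p of 0.792. Of 18 other precursor genes, 11 were lower and 7 higher. Groups were apart for 2 lower and 2 higher genes, beside 13.0% of all tested genes in either direction. The median was -0.06, and 1 gene in each direction had an unadjusted edgeR p under 0.05, beside 6.19% of all tested genes. That median was -0.19 without Syn-cre replicate 1, -0.11 without vehicle replicate 3, -0.10 without vehicle replicate 2 and -0.03 without vehicle replicate 1. The pair were Megf11, which was higher (2.19 ± 0.311 FPKM in Syn-cre, 1.49 ± 0.308 FPKM in vehicle libraries), and Traf4, a signalling adaptor, which was lower (2.91 ± 0.550 FPKM in Syn-cre, 4.04 ± 0.512 FPKM in vehicle libraries), each with an edgeR adjusted p of 0.792.

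Of 15 transcription factors of the lineage, 11 were lower and 4 higher, with a median of -0.12, which was -0.03 without vehicle replicate 1, and 0 at an unadjusted p under 0.05. Olig1, which acts in lineage specification and maturation, averaged 52.5 ± 2.52 FPKM in Syn-cre and 60.8 ± 5.42 FPKM in vehicle libraries, with groups apart and a log2 fold change of -0.19 (edgeR adjusted p = 0.792). Nkx2-2, a regulator of differentiation, was at 1.66, 0.596 and 1.18 FPKM in Syn-cre and 1.67, 1.56 and 1.68 FPKM in vehicle libraries, again lowest in Syn-cre replicate 2. Of 16 mature myelin genes, 15 were lower and 1 higher, with a median of -0.61 and 10 lower at an unadjusted edgeR p under 0.05, beside 3.16% of all tested genes. Their summed level was 720 to 737 FPKM in Syn-cre and 875 to 1377 FPKM in vehicle libraries. Of the 16 genes, 15 were highest in vehicle replicate 1, the library that also led for Enpp6 and C1ql1. Without vehicle replicate 1 the log2 fold change was -0.78 for Enpp6 and -0.51 for C1ql1. Each was the smallest fall when single libraries were left out. The median of the myelin genes was then -0.32. What set this library apart was not tested. Of the 16 genes 1, Klk6, was at 0 in at least 1 library. Mbp, which encodes myelin basic protein, averaged 219 FPKM in Syn-cre and 305 FPKM in vehicle libraries. Set against the mean of these genes, Gpr17 overlapped between the groups, at 0.293, 0.120 and 0.202 in Syn-cre and 0.182, 0.292 and 0.242 in vehicle libraries.

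**Figure D5:**
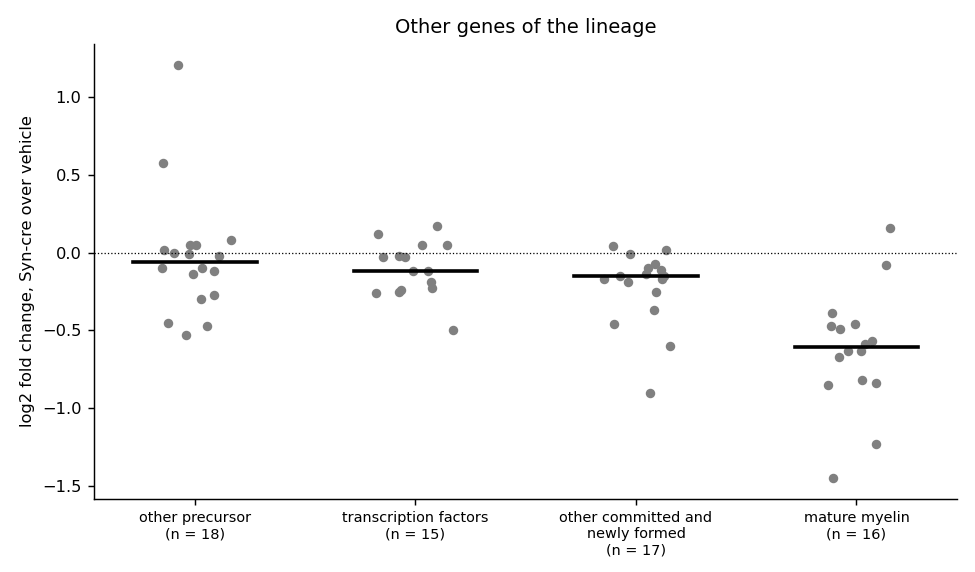
Log2 fold change, Syn-cre over vehicle, of single genes (points) in 4 lists of the oligodendrocyte lineage that hold none of the 10 members, with the median as a bar. The medians are -0.06 for other precursor genes, -0.12 for transcription factors, -0.15 for other committed and newly formed genes and -0.61 for mature myelin genes.

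The pathways of Pdgfra and Bmp4 were counted as well. Of 5 PDGF ligands and receptors, 4 were lower and 1 higher, with 0 at an unadjusted p under 0.05. Pdgfb, a ligand made by endothelium and neurons, averaged 5.12 ± 0.213 FPKM in Syn-cre and 4.68 ± 0.184 FPKM in vehicle libraries, and Pdgfrb, the pericyte receptor, 4.05 ± 0.492 FPKM in Syn-cre and 5.10 ± 0.801 FPKM in vehicle libraries. Of 20 BMP ligands, receptors, inhibitors and targets, 14 were lower and 6 higher, with a median of -0.17 and 3 lower at an unadjusted edgeR p under 0.05, beside 3.16% of all tested genes. The median was -0.09 without Syn-cre replicate 3 and -0.10 without vehicle replicate 3. Id2, a target of BMP signalling that inhibits differentiation factors, was at 19.5, 21.0 and 21.5 FPKM in Syn-cre and 25.6, 27.5 and 25.2 FPKM in vehicle libraries, with no overlap. Its log2 fold change was -0.31 (SE 0.0723; edgeR adjusted p = 0.792). Id3 was at 11.4 ± 1.04 FPKM in Syn-cre and 15.2 ± 2.51 FPKM in vehicle libraries, a log2 fold change of -0.39 (edgeR adjusted p = 0.792). Astrocytes also express Id3. Of 6 astrocyte genes, 4 were lower and 2 higher. At an unadjusted edgeR p under 0.05, 2 were lower and 1 higher, beside 6.19% of all tested genes in either direction. The 6 genes summed to 144 to 162 FPKM in Syn-cre and 171 to 196 FPKM in vehicle libraries, led by Slc1a3 and Gfap. Their part in the Id3 values was not tested. Of 5 microglia genes, Csf1r among them, 3 were lower and 2 higher, with summed levels of 76 to 96.5 FPKM in Syn-cre and 87.4 to 97.0 FPKM in vehicle libraries.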

How the data were processed

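Hippocampal poly(A) RNA was sequenced as read pairs, per the labels' protocols. Tools listed by the submitters' processing notes are HISAT2 2.2.1 and StringTie 2.1.6, next to cutadapt 1.9, edgeR and DESeq2, with the build GRCm39 and no settings. The authors deposited estimated counts, already whole numbers, and FPKM values per gene and library, per the file headers. Columns were matched to samples by library name. The counts were fitted with edgeR 4.0.16 in R 4.3.3 (filterByExpr, TMM, quasi-likelihood F test, Benjamini-Hochberg over 20946 genes at 0.05). Each SE is the fold change divided by the square root of F. Single members had exact two-sided permutation tests of log2(FPKM + 1) over 20 assignments. The pipeline was tested on simulated data. Alternatives used RLE factors, no filter, DESeq2 1.42.0, limma 3.58.1 on log2(FPKM + 1) and log2(FPKM + 0.1), each library left out, a replicate block, a term for Y-linked counts and counts divided by 4. The lowest chi-square per gene between libraries was 25.2, so none was a duplicate.

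The text names Klk6, C1ql3, Neu3 and Lims2 after their values were seen. The members and the 15 lists of 150 further genes were chosen with earlier results of these data known. All members are named. Of each pathway list the text names genes with an adjusted p under 0.05 or, with none, the 2 with the smallest p. Of each marker list it names the 2 most abundant, except for 1 gene in each of 2 lists that is not reported here. For choroid plexus these were Ttr and Kl, with Kl at 1.54 FPKM in Syn-cre and 11.0 FPKM in vehicle libraries. Of 10 choroid plexus genes all 10 were lower, with summed levels of 4.20 to 16.6 FPKM in Syn-cre libraries. Vehicle replicates 1 to 3 summed to 16.8, 16.3 and 4334 FPKM. The median log2 fold change of -4.11 was -0.21 without vehicle replicate 3. Dispersion was shared over all 6 libraries.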

Additional observations from a re-analysis of the deposited data

How the results depend on the processing

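In edgeR 0 genes passed an adjusted p under 0.05, against 1296 at an unadjusted p under 0.05. DESeq2 called 74 genes and 1 member, counts divided by 4 called 1 gene and the term for Y-linked counts 1 gene, and leaving out single libraries called 0 to 6 genes (6 without vehicle replicate 1) and 0 members. With the replicate block 0 genes passed and 1048 had an unadjusted p under 0.05. Same-numbered libraries did not deviate together (correlations -0.01, -0.05 and -0.10, and 0 of 6 libraries correlated best with their own number). That gives no sign of pairing by number, but 3 libraries per group cannot exclude it. Without Syn-cre replicate 2 and vehicle replicate 3 together, the unadjusted count was 749; the fit had fewer libraries. Members reversed in sign as follows: Pdgfra to -0.01 without that pair, Bmp4 to 0.11 and Lhfpl3 to -0.11 with the term for Y-linked counts, and Lhfpl3 over -0.16 to 0.26 when single libraries were left out; the cause was not tested. Enpp6, C1ql1 and Gpr17 were lower in all 16 alternatives (-1.57 to -0.62, -0.92 to -0.51 and -1.07 to -0.46), with an unadjusted p under 0.05 in 16, 16 and 11 of them; limma values on log2(FPKM + 1) are pulled towards 0 for low genes.

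With single libraries left out, median log2 fold changes ran from -0.15 to -0.03 for transcription factors, -0.19 to -0.03 for other precursor genes, -0.20 to -0.13 for other committed genes, -0.71 to -0.32 for mature myelin genes, -0.12 to -0.02 for lecticans, -0.14 to 0.17 for C1q-like genes, -0.03 to 0.12 for sialidases, -0.21 to -0.09 for BMP genes, -0.25 to -0.02 for PDGF genes, -0.28 to -0.04 for pericyte genes, -0.23 to -0.12 for astrocyte genes, -0.87 to -0.07 for meningeal genes and -4.66 to -0.21 for choroid plexus genes. The difference in log2 ratio ran from -1.34 to -0.48 for Gpr17 over Pdgfra, -0.95 to -0.40 for Bmp4 over Pdgfra and -0.59 to 0.05 for Gpr17 over the myelin mean. Without Syn-cre replicate 2 and vehicle replicate 3 the medians were -0.23 for other committed genes, -0.13 for C1q-like genes, 0.17 for sialidases and -0.12 for choroid plexus genes. Bmp4 had 78 to 244 estimated counts per library, and its log2 fold change was -0.43 with counts divided by 4.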
